A study of Mus musculus with 6 samples.

Results

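In adult mouse kidney, 42 genes of the cell division cycle were examined, of which 41 could be read on the arrays. The genes were chosen by function and sorted into 13 genes of DNA replication, 16 measured genes of mitosis, 8 cyclins and kinases of the G1 phase, 2 transcription factors (E2f1 and Foxm1) and 2 inhibitors of cyclin-dependent kinases (Cdkn1b and Cdkn2c). Ccnb1, the main mitotic cyclin B, had no probe set that the platform annotation used here gives to it alone, so it was not analysed here. Each gene was read at the probe set with the highest mean over all arrays, among 18193 genes measured in this way and 45037 probe sets in all. The study measured kidney RNA of 6 male mice aged 10 weeks on 1 Affymetrix expression array per animal. In the ICD group, 3 mice were heterozygous for an allele that expresses the soluble intracellular domain of megalin (the tail of the endocytic receptor Lrp2), and 3 wild type littermates (WT) were the controls. The comparison asks whether this domain alters transcript levels in the kidney. The promoter that drives the allele and the strain of the mice are not given in the sources used here.

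The cell cycle passes through a growth phase (G1), DNA synthesis (S), a second growth phase (G2) and mitosis (M). D-type cyclins with Cdk4 and Cdk6 open the way out of G1, after which E2F factors switch on the genes of DNA replication, and MYB and FOXM1 complexes switch on the genes of mitosis. Most tubule cells of an adult kidney are at rest, so transcripts of mitosis come from few cells, whereas D-type cyclins, Pcna and parts of the replication machinery are also present in cells that do not divide.

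The replication and mitosis genes differ in the DNA letters around their starts, which the choice of members did not use. RefSeq promoter windows of assembly GRCm38.p6 (250 bases before to 50 after the start) were found for 34 of the 42 genes, as 38 windows. No window was listed for Mcm4, Ccna2, Aurkb, Kif20a, Ccnd1, Ccnd2, Ccne2 and Foxm1. On either strand, the CHR element (TTTGAA), through which resting cells keep mitotic genes off, was found in 10 of 14 mitosis genes and in 1 of 12 replication genes, Mcm2. By window these are 73.3% and 7.69%, against 17.9% of all 32851 windows. The E2F site (TTTCCCGC, TTTCGCGC, TTTGCCGC or TTTGGCGC) was found in 6 of 12 replication genes (Mcm3, Mcm5, Mcm6, Mcm7, Cdc6 and Cdt1) and in 1 of 14 mitosis genes, Cdk1. By window these are 46.2% and 6.67%, against 2.26% of all windows. The CCAAT box, bound by NF-Y, was found in 86.7% of mitosis windows, 69.2% of replication windows and 37.4% of all windows. Some matches lay after the start, among them the only CHR elements of Bub1b, Aurka and Plk1 and all E2F sites of Mcm3 and Cdt1. These matches describe letters only, and windows of 1 gene can overlap.

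The 150 bases just before the start are shown for 3 mitosis genes with the CHR element and 2 replication genes with an E2F site. Capitals mark CHR elements, E2F sites and CCAAT boxes on either strand, and overlapping matches run together. The stretches lie at chr7:135716380-135716529 (minus strand), chr10:69352913-69353062 (minus strand), chr4:118437344-118437493 (minus strand), chr1:128359706-128359855 (minus strand) and chr11:98908001-98908150 (plus strand), each written 5′ to 3′ on the gene's strand.
Mki67: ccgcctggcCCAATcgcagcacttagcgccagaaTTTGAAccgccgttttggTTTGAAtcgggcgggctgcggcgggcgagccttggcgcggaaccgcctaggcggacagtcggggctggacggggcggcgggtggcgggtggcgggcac
Cdk1: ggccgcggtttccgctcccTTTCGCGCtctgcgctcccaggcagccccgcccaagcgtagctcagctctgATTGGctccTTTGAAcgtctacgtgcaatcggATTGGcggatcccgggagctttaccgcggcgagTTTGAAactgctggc
Cdc20: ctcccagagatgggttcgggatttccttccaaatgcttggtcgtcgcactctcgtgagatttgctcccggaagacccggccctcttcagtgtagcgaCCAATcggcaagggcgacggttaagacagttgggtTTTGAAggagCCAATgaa
Mcm6: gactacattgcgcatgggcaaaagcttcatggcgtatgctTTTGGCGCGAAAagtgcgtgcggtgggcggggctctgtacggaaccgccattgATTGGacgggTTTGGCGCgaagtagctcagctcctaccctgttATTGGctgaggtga
Cdc6: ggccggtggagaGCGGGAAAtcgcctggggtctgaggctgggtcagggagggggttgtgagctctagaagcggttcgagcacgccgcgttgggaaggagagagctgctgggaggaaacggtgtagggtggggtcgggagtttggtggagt
Mki67 holds a pair of CHR elements that begin 116 and 98 bases before the start. In Cdk1 these begin 71 and 15 bases before it, with an E2F site farther out, and in Cdc20 the element begins 18 bases before the start. Mcm6 holds 3 E2F matches, of which 2 overlap.

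**Figure D1:**
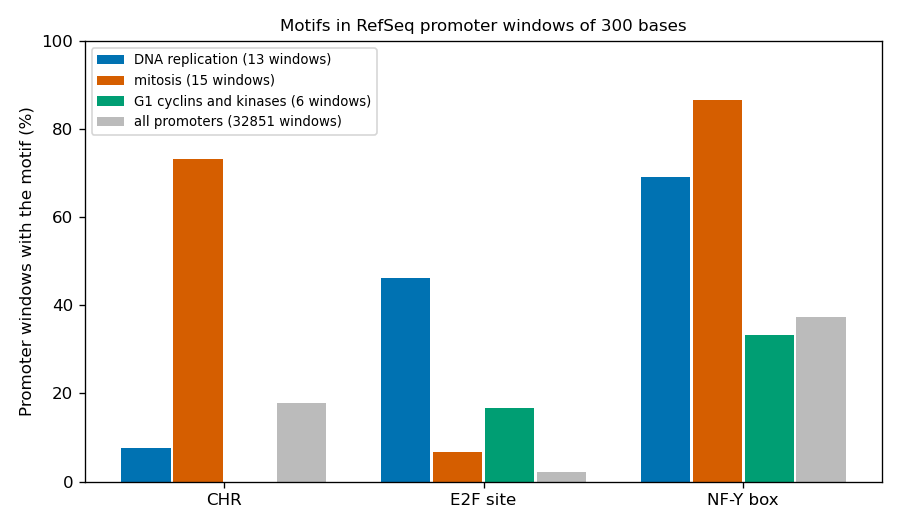
Share of RefSeq promoter windows of 300 bases that hold the CHR element, an E2F site or the CCAAT box (labelled NF-Y box), in percent, for the replication, mitosis and G1 groups and for all 32851 windows. The CHR bar is highest for mitosis genes (73.3%) and the E2F bar for replication genes (46.2%).

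The deposited values are log2 intensities after RMA, with nearly equal array medians. The number of arrays, 3 per group, limits the precision. Over the 41 genes the 95% confidence interval of the difference reached a median of 0.19 to either side. Array WT 3 stood apart in some proximal tubule markers: the mean deviation of 10 proximal tubule markers was -1.02 there and 0.052 to 0.28 on the other 5 arrays. A few genes carried most of this: Slc5a12 read 4.12 on WT 3 and 9.27 to 10.47 elsewhere, and Slc34a3 read 6.46 and 8.68 to 9.35. Slc5a2 read 10.40 there and 11.29 to 11.96 elsewhere, and Slc6a19 read 9.43 and 10.63 to 11.15. By contrast, Lrp2 read 12.78 and 12.77 to 12.93. On WT 3, 0 of the 10 markers lay above their 6-array means, and 7 were at their lowest. The median deviation of the 10 markers on WT 3 was -0.31, and the scores of loop and distal tubule (0.047) and collecting duct (0.17) were not low there. Kidney identity was plain on all arrays, with the tubule marker Umod at 14.32 or more and Slc34a1 at 13.92 or more. Of the 16 mitosis genes, 10 were read at probe sets whose mean lay below the median of all probe sets, 6.64, as were 2 of 13 replication genes and 1 of 8 G1 genes. Such dim probe sets can hide differences, and the values used here carry no detection calls. In whole kidney, fewer cells of a type and less RNA per cell cannot be told apart.

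No cell cycle gene passed the test. In limma, adjusted over 45037 probe sets with a threshold of 0.05, 0 of 41 genes were called, and 0% of all probe sets were. The smallest adjusted p among the 41 was 0.855, that of Cdkn1b. At an unadjusted p under 0.05 the count was also 0 of 41, against 3.94% of all 18193 genes read in the same way. The groups did not overlap for 3 of the 41 genes (7.32%), against 9.10% of all genes. These were Mcm2, Ccnd2 and Cdkn1b, all with ICD above WT, as for 3.66% of all genes. The reverse, all ICD values below all WT values, was seen for none of the 41 and for 5.44% of all genes. The sign was positive (ICD above WT) for 30 of 41 genes (73.2%), with a median difference of 0.037 on the log2 scale. Over all genes 43.9% were positive and the median was -0.012. Without single arrays the positive count ranged from 25 (without ICD 3) to 31, and the median from 0.040 to 0.081, the highest without WT 1. Without WT 3 alone, 30 of 41 genes were positive, with a median of 0.053.

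**Figure D2:**
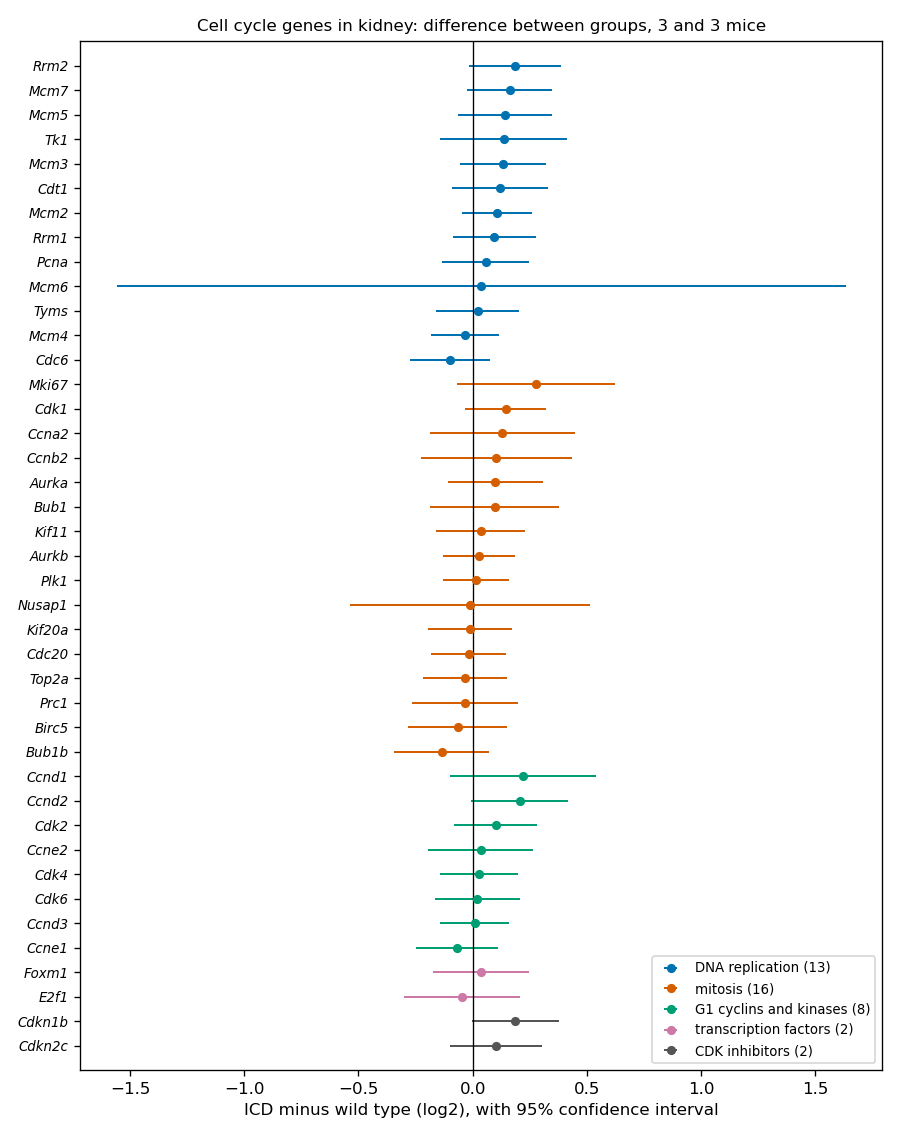
Difference between ICD and wild type kidneys (log2, horizontal axis) for each of the 41 genes, with the 95% confidence interval from limma and colours for the functional groups. Every interval includes 0, and that of Mcm6, from -1.56 to 1.63, is the widest.

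DNA replication genes had small positive differences. Of the 13 genes, 11 were higher and 2 lower in ICD kidneys, and none passed the test, with a median difference of 0.10 on the log2 scale (0.053 without WT 3, 0.050 without probe sets of the types _s_at, _x_at and _a_at, 0.057 when each gene's probe sets were averaged, and 0.11 without Mcm6). The MCM proteins form the ring-shaped helicase that is loaded on DNA in G1 and unwinds it in S phase. Mcm2 read 8.79, 8.86 and 8.77 on the ICD arrays and 8.65, 8.71 and 8.75 on the wild type arrays. Its groups did not overlap, by a gap of 0.022, and the difference was 0.10 (95% confidence interval -0.048 to 0.26) with a limma adjusted p of 0.931. Mcm7 read 9.69, 9.69 and 9.49 on the ICD arrays and 9.38, 9.49 and 9.52 on the wild type arrays, with ICD 1 and ICD 2 above all others and ICD 3 among the WT values. The difference was 0.16 (interval -0.025 to 0.35), adjusted p = 0.889 in limma. Mcm5 read 7.07, 7.28 and 7.33 on the ICD arrays and 7.07, 7.18 and 7.01 on the wild type arrays, so that ICD 2 and ICD 3 were high and ICD 1 was at the level of WT 1, with a difference of 0.14 (interval -0.065 to 0.35). Mcm3 differed by 0.13 (interval -0.055 to 0.32). Mcm4 read 6.85, 6.79 and 6.80 on the ICD arrays and 6.80, 6.90 and 6.84 on the wild type arrays, all within 0.11 of each other and overlapping, a difference of -0.034 (interval -0.18 to 0.11). At the probe sets read here, only Mcm4 among the 6 helicase genes was lower in ICD kidneys. Over all probe sets of a gene, differences ran from -0.099 to 0.15 for Mcm3, from -0.034 to 0.020 for Mcm4 and from -0.10 to 0.091 for Mcm6. All probe sets of Mcm2, Mcm5 and Mcm7 were higher.

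Genes of licensing, of the sliding clamp and of nucleotide supply showed the same small scale. Cdc6 and Cdt1 load the helicase. Cdc6 read 4.17, 4.14 and 4.11 on the ICD arrays and 4.36, 4.15 and 4.20 on the wild type arrays, all near the lower end of the table, and differed by -0.10 (interval -0.27 to 0.076). Cdt1 differed by 0.12 (interval -0.090 to 0.33) and Pcna, the sliding clamp of the DNA polymerases, by 0.057 (interval -0.13 to 0.25). Rrm1 and Rrm2 are the subunits of ribonucleotide reductase, which makes deoxynucleotides. Rrm2 had the largest difference of the group: it read 7.08, 7.14 and 6.98 on the ICD arrays and 6.74, 7.02 and 6.88 on the wild type arrays. The ICD arrays were high except that WT 2 lay above ICD 3, and the difference was 0.19 (interval -0.016 to 0.39), adjusted p = 0.873 in limma. Rrm1 differed by 0.095 (interval -0.086 to 0.28). Thymidylate synthase, Tyms, read 5.06, 5.10 and 5.15 on the ICD arrays and 4.95, 5.19 and 5.11 on the wild type arrays and differed by 0.022 (interval -0.16 to 0.20), and thymidine kinase, Tk1, differed by 0.14 (interval -0.14 to 0.41), with its highest value on WT 1 (7.55).

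Mcm6 varied between animals far more than any other member, without regard to genotype. Its probe set 1416251_at read 8.24, 6.53 and 8.59 on the ICD arrays and 8.56, 8.49 and 6.20 on the wild type arrays. Arrays ICD 2 and WT 3 were low and the other 4 arrays high, with a gap of 1.71 between them and 1 low animal in each group. A further probe set, 1438852_x_at, read 6.02, 3.98 and 6.64 on the ICD arrays and 6.59, 6.41 and 3.95 on the wild type arrays, with the same arrays low and a gap of 2.04. The dimmest one, 1447756_x_at, stayed between 3.63 and 3.90 on all arrays. The group means of the first were 7.79 ± 1.10 (SD, n = 3) in ICD and 7.75 ± 1.35 in WT kidneys, a difference of 0.037 (95% confidence interval -1.56 to 1.63). It was 0.67 without ICD 2 and -0.74 without WT 3. By spread within the groups (SD 1.23) Mcm6 ranked 16th of 18193 genes, whose median SD was 0.098. The other 5 helicase genes had SDs of 0.041 to 0.12. None of them was low on both ICD 2 and WT 3 in that way: Mcm2 and Mcm5 on ICD 2 were above their own 6-array means.

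The coding genes beside Mcm6 on chromosome 1 showed no gap of that size. RefSeq (GRCm38.p6) lists Zranb3, R3hdm1, Ubxn4 and Lct on one side and Dars, Cxcr4, Thsd7b and Cd55b on the other. Dars had no probe set to itself in the annotation used here. At the brightest probe set of each of the other 7 genes the range over all arrays was 0.17 to 0.44, and over all their 15 probe sets it reached 0.53. ICD 2 and WT 3 were the lowest pair at 2 of these 15, 1 of Zranb3 and 1 of Ubxn4, with gaps of 0.073 and 0.066. At its brightest probe set Ubxn4 read 10.40, 10.42 and 10.50 on the ICD arrays and 10.70, 10.52 and 10.42 on the wild type arrays, with WT 1 highest and ICD 1 lowest. Lct, the direct neighbour, read 4.17, 4.17 and 4.21 on the ICD arrays and 4.36, 4.28 and 4.34 on the wild type arrays. Lct and Cd55b lay near the lowest value of the table, 3.11, where a fall of the size seen for Mcm6 could not be read.

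**Figure D3:**
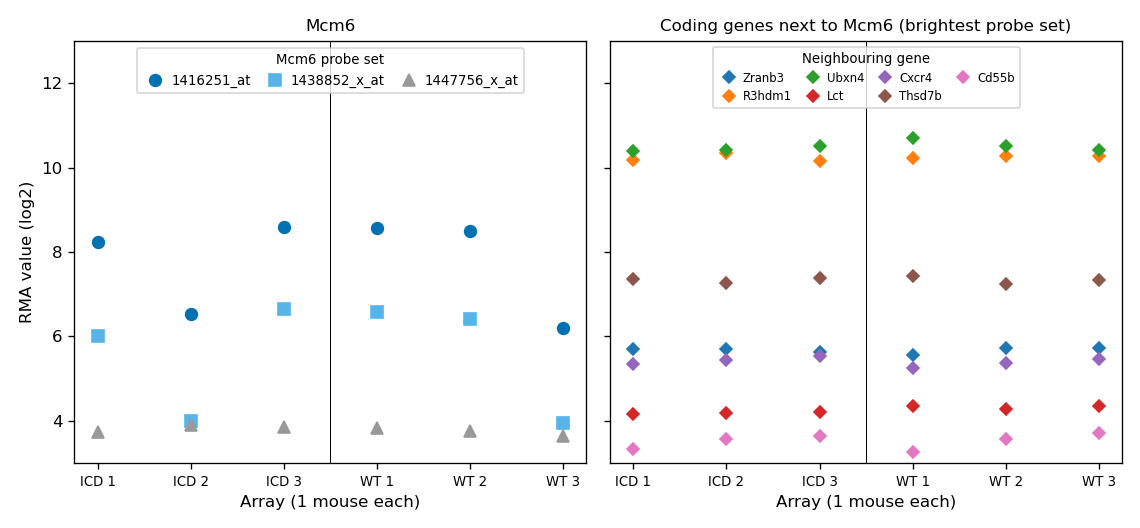
RMA values (log2, vertical axis) of the 3 Mcm6 probe sets (left) and of the brightest probe set of 7 neighbouring coding genes (right) on each array. At 2 of 3 Mcm6 probe sets, ICD 2 and WT 3 lie at least 1.71 below the other arrays, while each neighbour stays within 0.44.

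Mitosis genes were split between higher and lower. Of 16 genes, 9 were higher and 7 lower in ICD kidneys, none passed the test, no gene separated the groups, and the median difference was 0.022 (from -0.0033 without ICD 3 to 0.066 without ICD 2, 0.0028 among the probe sets at or above the median of the table, and 0.066 without _s_at, _x_at and _a_at probe sets). The highest difference was that of Mki67, the gene of the proliferation antigen Ki-67, which read 6.49, 6.47 and 6.94 on the ICD arrays and 6.56, 6.38 and 6.12 on the wild type arrays. ICD 3 was high, WT 3 was low and the other 4 lay between, and the difference was 0.28 (95% confidence interval -0.067 to 0.62), adjusted p = 0.903 in limma. Without WT 1 it was 0.38, and without ICD 3 it was 0.13. Cdk1, the kinase that drives entry into mitosis, read 6.99, 6.87 and 7.10 on the ICD arrays and 6.85, 6.87 and 6.81 on the wild type arrays: ICD 1 and ICD 3 lay above all WT values, and ICD 2 lay within them. It differed by 0.15 (interval -0.032 to 0.32). The mitotic cyclins Ccna2 and Ccnb2 had the same highest array as Mki67 and Cdk1. Ccna2 read 6.65, 6.47 and 7.02 on the ICD arrays and 6.75, 6.51 and 6.49 on the wild type arrays, a difference of 0.13 (interval -0.19 to 0.45). Ccnb2 read 6.31, 6.24 and 6.66 on the ICD arrays and 6.57, 6.14 and 6.18 on the wild type arrays, a difference of 0.10 (interval -0.23 to 0.43). For Mki67, Ccna2 and Ccnb2 the highest value was on ICD 3 and the next on WT 1, 1 animal of each genotype. WT 1 stood apart from the lower arrays for Ccnb2 (6.57 against 6.31 on ICD 1). It lay close to ICD 1 for Mki67 (6.56 and 6.49) and Ccna2 (6.75 and 6.65).

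Genes of the spindle and its checkpoint did not share 1 pattern. The lowest difference was that of Bub1b, a checkpoint kinase, which read 6.08, 6.27 and 6.18 on the ICD arrays and 6.31, 6.46 and 6.17 on the wild type arrays and differed by -0.14 (interval -0.34 to 0.072). Birc5 (survivin), which with Aurkb forms the chromosomal passenger complex, read 5.05, 5.14 and 5.17 on the ICD arrays and 5.18, 5.02 and 5.36 on the wild type arrays, with its highest value on WT 3, and differed by -0.065 (interval -0.28 to 0.15). Aurkb itself differed by 0.028 (interval -0.13 to 0.19). Top2a, the enzyme that untangles DNA, read 6.69, 6.51 and 6.47 on the ICD arrays and 6.63, 6.62 and 6.52 on the wild type arrays and differed by -0.032 (interval -0.22 to 0.15). Nusap1, a spindle protein, spread the most: it read 6.91, 6.68 and 6.93 on the ICD arrays and 7.31, 6.98 and 6.26 on the wild type arrays. WT 1 was high and WT 3 low, both outside the ICD values, and the difference of -0.0098 (interval -0.54 to 0.52) was -0.30 without WT 3 and 0.22 without WT 1. Plk1, a kinase of mitotic entry and exit, spread the least of the 41 genes, from 6.92 to 6.98. Prc1, which bundles microtubules of the central spindle, read 6.70, 6.45 and 6.79 on the ICD arrays and 6.64, 6.80 and 6.60 on the wild type arrays, with ICD 2 lowest and WT 2 highest, and differed by -0.034 (interval -0.27 to 0.20). For Cdc20, Bub1, Aurka, Kif11 and Kif20a, which serve the checkpoint, the spindle poles and cytokinesis, differences lay between -0.018 (Cdc20) and 0.10 (Aurka).

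**Figure D4:**
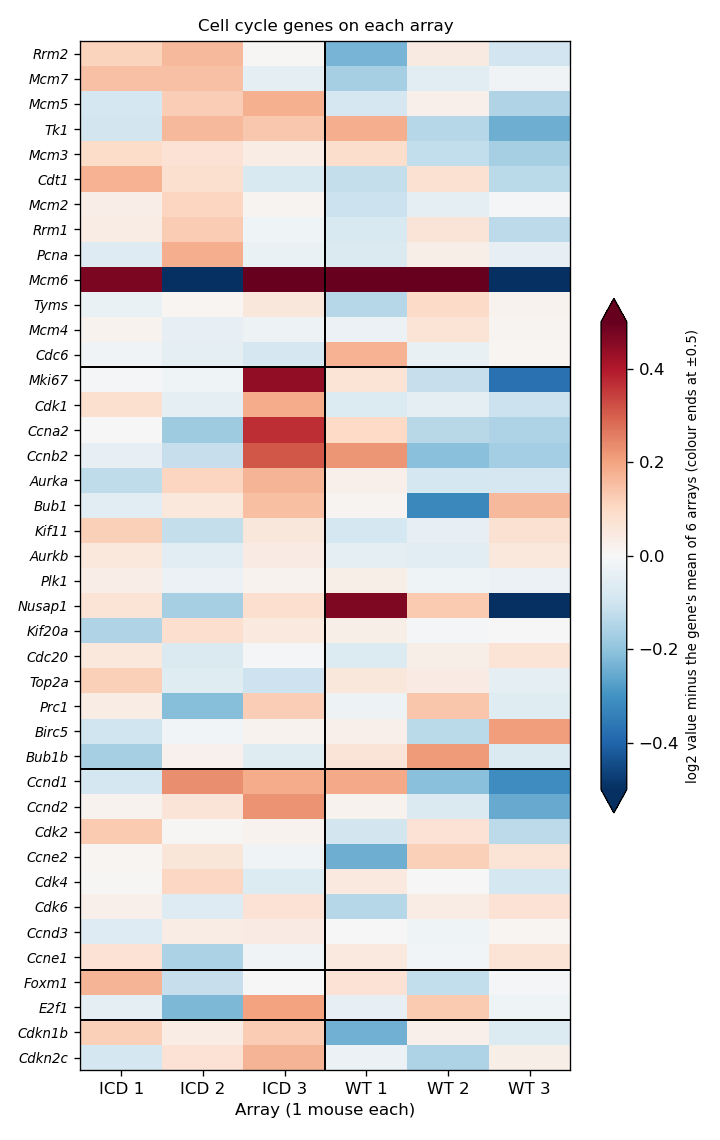
Log2 value minus the gene's mean over 6 arrays (colour, ending at ±0.5) for the 41 genes in rows, grouped by function and ordered by difference, and the 6 arrays in columns. Mki67, Ccna2 and Ccnb2 are highest on ICD 3, and Mcm6 is low on ICD 2 and WT 3.

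Replication and mitosis genes were also set against each other, and the sign of the gap between them depended on the probe sets used. The medians of 0.10 and 0.022 lay 0.083 apart, and this gap was 0.090 without Mcm6, 0.019 without WT 3, 0.022 without ICD 2 and -0.016 without probe sets of the types _s_at, _x_at and _a_at. Per array, the mean deviation of the replication genes other than Mcm6 minus that of the mitosis genes was 0.031, 0.14 and -0.10 in ICD and -0.10, 0.039 and -0.0092 in WT kidneys. The groups overlapped, with ICD 3 and WT 1 lowest. With Mcm6 the values were 0.065, 0.040 and -0.041 in ICD and -0.034, 0.094 and -0.12 in WT kidneys. No p is given for these scores, since the members were chosen with earlier results known.

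The 16 mitosis genes scored highest on ICD 3 and WT 1, 1 array of each genotype. Stromal and endothelial marker lists also scored highest there, but not all marker lists did. On ICD 3, 13 of 16 mitosis genes lay above their 6-array mean, and on WT 1, 11 of 16, against 8 of 16 on ICD 1, 4 on ICD 2 and 5 each on WT 2 and WT 3. The mitosis score was 0.11 on ICD 3 and 0.050 on WT 1, and negative on the other 4 arrays. The 40 further mitosis genes did not single out ICD 3: they scored 0.013 on ICD 2, 0.023 on ICD 3 and 0.038 on WT 1, with 24, 24 and 27 of 40 above their mean. Of 7 stromal and smooth muscle markers all were measured, and their score was 0.24 on ICD 3 and 0.23 on WT 1, against -0.33 to 0.016 elsewhere. Pdgfrb, Col1a1, Col3a1 and Dcn were highest on these arrays. The smooth muscle markers were not: Myh11 and Tagln were highest on WT 2 and Acta2 on ICD 1. Myh11 read 8.01 on ICD 3 and 8.02 on WT 1, below its 6-array mean of 8.07. The 8 endothelial markers, all measured, scored 0.18 and 0.26 on these arrays and -0.36 to 0.043 elsewhere. The 7 myeloid markers scored 0.13 and 0.052 there, and the 7 measured of 8 lymphoid markers 0.11 and 0.015. Other lists were not high on both arrays. Loop and distal tubule markers scored -0.19 on ICD 3 and 0.022 on WT 1, and collecting duct markers -0.10 and -0.00072. Erythroid markers scored -0.11 and 0.11, adipose markers -0.12 and -0.47, and podocyte markers 0.23 and -0.032. The 10 proximal tubule markers scored 0.26 on ICD 3 and 0.28 on WT 1, against -1.02 to 0.22 elsewhere. Slc5a12 weighed on this mean, with 10.47 on ICD 3, 10.35 on WT 1 and 9.27 to 9.82 on ICD 1, ICD 2 and WT 2. By count, 9 of 10 lay above their mean on ICD 2, 8 each on ICD 1 and WT 1, and 6 on ICD 3. By median deviation these tubule markers were highest on ICD 2 (0.12). The mean level of the stromal list ranged from 9.19 to 9.57 in ICD and from 8.99 to 9.56 in WT kidneys. That of the endothelial list ranged from 8.52 to 8.73 in ICD and from 8.20 to 8.82 in WT kidneys, that of the myeloid list from 7.36 to 7.61 in ICD and from 7.44 to 7.53 in WT kidneys, and that of the lymphoid list from 5.72 to 5.89 in ICD and from 5.71 to 5.79 in WT kidneys. The dimmest markers, Itgam (myeloid) and Cd3g (lymphoid), reached no more than 4.73 and 4.76 on any array. Their part in the values of the mitosis genes was not tested. The replication genes other than Mcm6 scored 0.011 on ICD 3 and -0.049 on WT 1, and highest on ICD 2 (0.091).

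**Figure D5:**
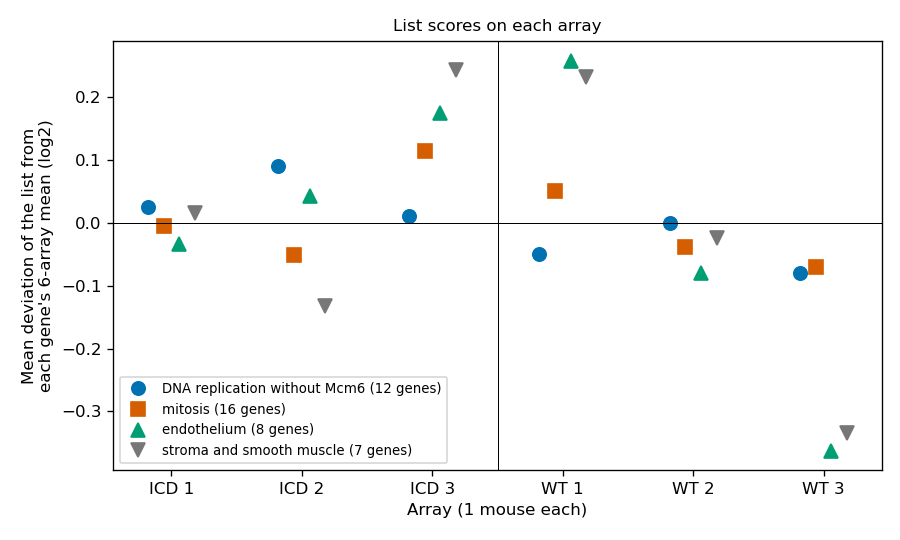
Mean deviation of a gene list from each gene's mean over 6 arrays (log2, vertical axis) on each array, for replication genes without Mcm6, mitosis genes, endothelial markers and stromal markers. Mitosis genes and both marker lists are positive together on ICD 3 and WT 1 and negative together on WT 2 and WT 3.

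Among the G1 cyclins and kinases, 7 of 8 genes had positive differences at the probe sets read here, and none passed the test. Their median difference was 0.032, and 0.035 to 0.075 with 1 array left out, the highest without WT 2. The D-type cyclins are made in response to growth signals and activate Cdk4 and Cdk6. Ccnd1 read 11.35, 11.67 and 11.63 on the ICD arrays and 11.63, 11.23 and 11.13 on the wild type arrays. ICD 2, ICD 3 and WT 1 were high and the other arrays low, and the difference was 0.22 (95% confidence interval -0.10 to 0.54), or 0.37 without WT 1 and 0.12 without WT 3. At all 3 of its probe sets ICD 2, ICD 3 and WT 1 were the highest arrays, with differences of 0.22 to 0.23. Ccnd2 read 8.34, 8.39 and 8.54 on the ICD arrays and 8.34, 8.25 and 8.07 on the wild type arrays. Its groups were separated by a gap of only 0.0025, and it differed by 0.21 (interval -0.0054 to 0.42), adjusted p = 0.856 in limma. All 7 Ccnd2 probe sets were higher in ICD kidneys, by 0.024 to 0.21. Ccnd3 read 10.13, 10.23 and 10.23 on the ICD arrays and 10.19, 10.17 and 10.20 on the wild type arrays, a narrow range, and differed by 0.0087 (interval -0.14 to 0.16). Its other probe sets were lower in ICD kidneys, with differences of -0.14 (1444323_at) and -0.052 (1438805_at). Cdk4 differed by 0.028 (interval -0.14 to 0.20). Cdk6 read 9.72, 9.63 and 9.77 on the ICD arrays and 9.55, 9.73 and 9.77 on the wild type arrays and differed by 0.021 (interval -0.17 to 0.21). Over all Cdk6 probe sets, differences ran from -0.027 to 0.021.

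Cyclin E with Cdk2 takes cells from G1 into S phase. Ccne1 was the only lower gene of the G1 group at the probe set read here, with 7.40, 7.17 and 7.31 on the ICD arrays and 7.38, 7.31 and 7.40 on the wild type arrays and a difference of -0.069 (interval -0.25 to 0.11). At its other probe set, 1416492_at, the sign was opposite: it read 6.73, 6.70 and 6.66 on the ICD arrays and 6.58, 6.62 and 6.53 on the wild type arrays, did not overlap and differed by 0.12 (interval -0.029 to 0.27). Ccne2 differed by 0.035 (interval -0.19 to 0.27). Cdk2 read 7.77, 7.65 and 7.66 on the ICD arrays and 7.55, 7.72 and 7.51 on the wild type arrays, with ICD 1 highest and WT 3 lowest, and differed by 0.10 (interval -0.080 to 0.28).

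The transcription factors that drive these programmes did not pass the test. E2f1 read 6.76, 6.58 and 7.004 on the ICD arrays and 6.76, 6.93 and 6.78 on the wild type arrays, with ICD 3 highest and ICD 2 lowest, and differed by -0.046 (interval -0.30 to 0.21). At its dimmer probe sets E2f1 differed by -0.034 (1431875_a_at) and by 0.11 (1447840_x_at, interval -0.042 to 0.26). At the latter all ICD values lay above all WT values. Foxm1, the activator of mitotic genes, read 8.51, 8.22 and 8.34 on the ICD arrays and 8.41, 8.22 and 8.33 on the wild type arrays and differed by 0.036 (interval -0.18 to 0.25). Both were lowest or near lowest on ICD 2.

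Both inhibitors were higher in ICD kidneys at the probe sets read here, and neither passed the test. Cdkn1b encodes p27, which holds cyclin E with Cdk2 in check in resting cells. It read 9.21, 9.13 and 9.22 on the ICD arrays and 8.85, 9.12 and 9.02 on the wild type arrays, or 9.18 ± 0.049 (SD, n = 3) against 8.997 ± 0.14. The groups were separated by a gap of 0.010, and the difference was 0.19 (95% confidence interval -0.0044 to 0.38) with an adjusted p of 0.855 in limma. It ranged from 0.11 without WT 1 to 0.25 without WT 2, and was 0.087 as the mean of both its probe sets. At its dim probe set, 1419497_at, the difference was -0.012 (interval -0.16 to 0.14). Cdkn2c, the gene of the Cdk4 and Cdk6 inhibitor p18, read 8.98, 9.14 and 9.24 on the ICD arrays and 9.04, 8.91 and 9.10 on the wild type arrays, with overlap between the groups, and differed by 0.10 (interval -0.10 to 0.31).

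Probe sets of 1 gene often disagreed. The 41 genes had 99 probe sets, of which 70 were higher in ICD kidneys. At 1 probe set per gene, 43.9% of all genes were higher. Of the 30 genes with more than 1 probe set, 19 had probe sets of both signs. None of the 99 passed limma's adjusted threshold, and 3 had an unadjusted p under 0.05, against 5.86% of all probe sets. The groups did not overlap for 11 of 99, against 10.5% of all probe sets in either direction. In 10 of the 11 ICD was above, and shares by direction were not counted over all probe sets. At 1 probe set per gene, ICD was above for 3.66% of all genes and below for 5.44%. The 3 with low p all lay outside the rule that picks 1 probe set per gene. Mcm5 at 1415945_at read 5.68, 5.83 and 5.77 on the ICD arrays and 5.54, 5.59 and 5.28 on the wild type arrays, without overlap, and differed by 0.29 (interval 0.073 to 0.50), with an adjusted p of 0.725 in limma. Cdt1 at 1424144_at read 7.08, 7.36 and 7.04 on the ICD arrays and 6.90, 6.98 and 6.88 on the wild type arrays, also without overlap, and differed by 0.24 (interval 0.027 to 0.46). Cdc20 at 1439377_x_at read 6.28, 6.50 and 6.79 on the ICD arrays and 6.33, 6.09 and 6.09 on the wild type arrays and differed by 0.35 (interval 0.057 to 0.65), with ICD 1 within the WT values. The Cdc20 probe set read for the gene differed by -0.018 (interval -0.18 to 0.15). For Rrm2, whose brightest probe set was higher in ICD kidneys, the other 2 were lower: 1416120_at read 6.17, 6.29 and 6.19 on the ICD arrays and 6.35, 6.33 and 6.40 on the wild type arrays, without overlap, and differed by -0.14 (interval -0.30 to 0.011). For Top2a the brightest probe set was the lower one, and 1454694_a_at differed by 0.29 (interval -0.056 to 0.64).

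Further genes of the cycle, chosen by function, were split between higher and lower. Of 111 genes measured out of 113, 58 were higher and 53 lower, with a median of 0.0049, and none passed limma's adjusted threshold. By function, 19 of 33 further replication genes were higher (median 0.0084), 19 of 40 mitosis genes (median -0.00044) and 20 of 38 regulators (median 0.0058). The groups did not overlap for 11 of 111, 5 with ICD above and 6 below, against 9.10% of all genes. Of the regulators, Cdkn1a, the gene of the stress-induced inhibitor p21, read 8.38, 8.17 and 8.27 on the ICD arrays and 8.13, 8.33 and 8.84 on the wild type arrays, with WT 3 highest, and differed by -0.16 (interval -0.53 to 0.22). Cdkn1c, the inhibitor p57, which podocytes express, read 8.79, 9.03 and 9.14 on the ICD arrays and 8.37, 8.23 and 8.70 on the wild type arrays, without overlap, and differed by 0.55 (interval 0.24 to 0.86), adjusted p = 0.642 in limma. The 5 measured of 6 podocyte markers scored 0.16 to 0.23 on ICD arrays and -0.29 to -0.032 on WT arrays, and their part in the Cdkn1c value was not tested. Rb1, the retinoblastoma gene that restrains E2F, differed by -0.030 (interval -0.22 to 0.16), and E2f4, the E2F of resting cells, by -0.093 (interval -0.25 to 0.069). Gmnn (geminin), which blocks Cdt1, differed by -0.037 (interval -0.28 to 0.21), Mybl2, an activator of mitotic genes, by 0.050 (interval -0.11 to 0.21), and Myc, a growth factor response gene, by -0.12 (interval -0.30 to 0.050). Trp53 had no probe set to itself in the annotation used here.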

How the data were processed

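Total kidney RNA of 6 mice was hybridised to 1 Affymetrix array each, per the labels, and groups were taken from the sample titles. The authors deposited log2 values made with RMA, per the submitters' processing notes. This method corrects background, forces the arrays to a common distribution and summarises each probe set, so it removes a shift shared by most transcripts and compresses differences of dim probe sets. The RMA version and chip definition are not given in the sources used here.

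Of 45101 rows, 64 control rows were left out. The annotation gave 1 gene symbol for 34945 probe sets. For each gene the probe set with the highest mean over 6 arrays was used. The fit used limma 3.58.1 under R 4.3.3 and set ICD against WT (lmFit, eBayes, genotype only, 2-sided, Benjamini-Hochberg over 45037 probe sets, threshold 0.05), after a run on simulated data. Differences are ICD minus WT, and intervals are 95% confidence intervals of that fit. With 3 against 3, the smallest 2-sided p of an exact permutation test is 0.1, and no such test was run. A list score is the mean over genes of the log2 value minus the gene's mean over 6 arrays, and it was not tested.

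Members and lists were chosen with earlier results of these data known. Values on all arrays are given for members without overlap, the 3 highest and 3 lowest differences of the replication, mitosis and G1 groups, both factors, both inhibitors and the 5 members with the largest spread. Further genes named were fixed by name, and those called if 20 or fewer. Also named, after their values were seen, are the probe sets with low p, some of those without overlap, and the genes beside Mcm6. Alternatives were another quantile normalization, bright probe sets alone, averaging a gene's probe sets, no _s_at, _x_at or _a_at probe sets, a trended and robust prior, array weights, the replicate number as a block and leaving out each array. The replication group without Mcm6 was added after the data were seen. Motifs were matched exactly on both strands.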

Additional observations from a re-analysis of the deposited data

How the results depend on the processing

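The result that 0 of 41 members passed limma's adjusted threshold held under all 13 alternatives, as did 0 of 111 for the further cell cycle genes. At an unadjusted p under 0.05 the count of members, 0 at first, was 2 when each gene's probe sets were averaged (Mcm5 and Cdt1), 2 without _s_at, _x_at and _a_at probe sets (the same genes), 2 with a trended and robust prior (Ccnd2 and Cdkn1b), 1 with array weights (Cdkn1b), and 1 to 5 with 1 array left out, the most without WT 1 (Mcm3, Tk1, Mki67, Ccnd1 and Ccnd2). The median over all members was 0.098 among bright probe sets, which hold 28 of the 41. The replication minus mitosis gap was -0.016 without _s_at, _x_at and _a_at probe sets, where 35 of the 41 remain, and 0.019 to 0.10 with 1 array left out. The G1 median lay between 0.035 and 0.075 with 1 array left out. The replicate number as a block gave 0 members at an unadjusted p under 0.05. Arrays of the same number did not deviate together (correlations of -0.0057, 0.0077 and -0.047), and 0 of 6 arrays correlated best with its own number. All correlations between an ICD and a WT array were small (-0.062 to 0.076), so they cannot decide whether the numbers pair the animals. With 1 array left out the sign of the difference turned for some members, whose values then ranged from -0.15 to 0.022 for Birc5, from -0.040 to 0.20 for Bub1, from -0.023 to 0.25 for Ccna2, from -0.025 to 0.24 for Ccnb2, from -0.0088 to 0.043 for Ccnd3, from -0.077 to 0.10 for Ccne2, from -0.056 to 0.014 for Cdc20, from -0.018 to 0.069 for Cdk4, from -0.045 to 0.063 for Cdk6, from -0.16 to 0.055 for E2f1, from -0.040 to 0.10 for Foxm1, from -0.014 to 0.10 for Kif11, from -0.057 to 0.061 for Kif20a, from -0.74 to 0.67 for Mcm6, from -0.30 to 0.22 for Nusap1, from -0.019 to 0.10 for Pcna, from -0.11 to 0.063 for Prc1, from -0.10 to 0.012 for Top2a, from -0.045 to 0.074 for Tyms. The sign also turned when probe sets were averaged (-0.023 for Aurka, 0.0017 for Bub1b, -0.060 for Ccnd3, 0.026 for Ccne1, 0.12 for Cdc20, -0.00055 for Cdk6, 0.010 for E2f1, -0.045 for Kif11, 0.041 for Prc1, -0.037 for Rrm2, 0.11 for Top2a), without _s_at, _x_at and _a_at probe sets (0.12 for Ccne1, 0.025 for Cdc20, -0.0073 for Cdk2, -0.022 for Mcm3, -0.16 for Rrm2), with array weights (-0.00071 for Ccnd3, 0.0081 for Nusap1) and after renewed quantile normalization (0.0010 for Kif20a). For 16 of 41 members the sign held under all alternatives. The cause of these changes was not tested. No detection values were used, so what dim signal limits could not be measured.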

Other observations

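The array pattern of Mcm6 was looked for in the whole table after it had been seen. At 6 of 45037 probe sets ICD 2 and WT 3 were the lowest pair with a gap of more than 1 on the log2 scale to the other 4 arrays, and for the other 14 pairs of arrays the count was 0 to 3. Besides the 2 Mcm6 probe sets these were Ugt2b38, a glucuronosyltransferase, Stbd1, a starch-binding protein of glycogen handling, Abca13, a membrane transporter, and an unnamed probe set, 1455869_at. Ugt2b38 read 14.17, 4.94 and 13.97 on the ICD arrays and 14.20, 14.11 and 7.04 on the wild type arrays. Stbd1 read 7.90, 5.99 and 7.91 on the ICD arrays and 8.57, 8.33 and 5.88 on the wild type arrays. Abca13 read 10.58, 9.19 and 11.44 on the ICD arrays and 11.21, 11.63 and 9.17 on the wild type arrays. That each has 1 low animal per genotype follows from the search, which asked for these arrays, and is no separate observation.

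Outside the members, 5 of the 111 further cell cycle genes (chosen here after their values were seen) had an unadjusted limma p under 0.05, against 3.94% of all genes, and none passed after adjustment. Ect2, an exchange factor of cytokinesis, differed by -0.40 (interval -0.63 to -0.17), Cenpe, a kinesin of the kinetochore, by -0.20 (interval -0.39 to -0.024), and Cdkn2b, the inhibitor p15, by -0.24 (interval -0.39 to -0.087), with all ICD values below all WT values. Ccng2, a cyclin of arrested cells, differed by 0.18 (interval 0.012 to 0.35) with all ICD values above. Cdkn1c was the other gene.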
